A study of Mus musculus with 6 samples.

Results

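Dlx1, Dlx2, Dlx5, Dlx6, Hand2, Pitx1 and Barx1, transcription factor genes known from the patterning of the lower jaw, were measured by RNA-seq in cultured mouse gum cells. These 7 genes were chosen by name, with their levels in these libraries already known, out of 20665 genes with a deposited value, and each name matched 1 gene. All 7 passed a filter that required 10 or more normalized counts in 3 or more libraries, as did 16141 genes in all. The cells were primary gingival fibroblasts, which build the connective tissue of the gum, from wild-type C57BL/6 mice, grown in DMEM with 10% fetal bovine serum. In 3 libraries the cells had been irradiated on a 35-mm dish with light of an Er:YAG laser, which is infrared and used on teeth and gums, at 3.9 J/cm2 from a distance of 25 cm, and 3 libraries came from non-irradiated cells. Both groups carry a 3 h time label, and the series title names the maxilla, the upper jaw, as the source of the cells. The titles number the libraries 1 to 3 within each group. Nothing in the labels says what a number stands for, whether it marks an animal or a culture, or how old the mice were, so that p-values rest on a spread between libraries that may be partly technical.

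The jaws form from cranial neural crest cells that fill the pharyngeal arches, and the position of a cell along the arch is read out by nested expression of Dlx genes. Dlx1 and Dlx2 are known to be active in the upper and the lower part of the first arch, whereas Dlx5 and Dlx6 are active in the lower part, downstream of endothelin-1 signalling, and losing both in mice turns the lower jaw into a mirror of the upper one. Hand2, a basic helix-loop-helix factor, acts below Dlx5 and Dlx6 at the tip of the lower arch, Pitx1 is a homeodomain factor of the lower jaw and the hindlimb, and Barx1 is a homeodomain factor of arch mesenchyme, molar teeth and stomach.

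Promoters are shown for the 4 of the 7 genes that matched the promoter table. Between the replicate numbers, levels differed widely for Hand2 and Dlx1, less for Barx1 and least for Dlx2. They are RefSeq sequences of build GRCm38.p6, from 250 bases before to 50 bases after the start of the gene, each written 5′ to 3′ on the gene's strand. Capitals mark matches, on either strand, to TAATTA (the core bound by many homeodomain proteins), CATCTG (an E-box of the Twist and Hand class) or TAATCC (the bicoid-class site of Pitx proteins). The searched motifs do not overlap each other in these sequences.
Hand2, chr8:57320733-57321032, plus strand: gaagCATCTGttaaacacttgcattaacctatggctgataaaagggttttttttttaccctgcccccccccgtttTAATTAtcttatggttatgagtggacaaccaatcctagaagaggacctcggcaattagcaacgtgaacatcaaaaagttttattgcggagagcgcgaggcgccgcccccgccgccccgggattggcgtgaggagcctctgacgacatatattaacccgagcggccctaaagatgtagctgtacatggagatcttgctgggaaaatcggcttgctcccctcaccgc
Dlx1, chr2:71529195-71529494, plus strand: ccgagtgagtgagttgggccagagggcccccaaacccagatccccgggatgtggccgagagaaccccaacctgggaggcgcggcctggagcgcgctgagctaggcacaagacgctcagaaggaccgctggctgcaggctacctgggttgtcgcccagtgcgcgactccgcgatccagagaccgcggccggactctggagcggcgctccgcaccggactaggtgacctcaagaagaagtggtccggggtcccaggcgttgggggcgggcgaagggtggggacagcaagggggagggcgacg
Dlx2, chr2:71546705-71547004, minus strand: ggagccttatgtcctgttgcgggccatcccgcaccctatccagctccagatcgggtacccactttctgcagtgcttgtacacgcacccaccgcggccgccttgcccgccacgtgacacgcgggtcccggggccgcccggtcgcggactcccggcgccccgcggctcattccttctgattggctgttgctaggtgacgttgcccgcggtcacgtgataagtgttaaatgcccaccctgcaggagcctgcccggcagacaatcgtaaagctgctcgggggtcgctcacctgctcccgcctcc
Barx1, chr13:48662786-48663085, plus strand: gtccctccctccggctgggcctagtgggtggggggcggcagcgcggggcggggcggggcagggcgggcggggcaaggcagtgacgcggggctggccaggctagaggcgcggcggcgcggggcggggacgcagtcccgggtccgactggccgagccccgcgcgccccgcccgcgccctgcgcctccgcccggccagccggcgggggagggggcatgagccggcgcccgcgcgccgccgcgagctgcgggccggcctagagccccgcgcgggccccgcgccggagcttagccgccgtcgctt
The Hand2 promoter held CATCTG at position -246 and TAATTA at position -175 from the start, and the promoters of Dlx1, Dlx2 and Barx1 held none of these letters. Among 32851 promoters of this length, 5.29% held TAATTA, 17.2% CATCTG and 7.06% TAATCC. GC content was 50.3% in the Hand2 promoter, 69.3% in Dlx1, 66.3% in Dlx2 and 84.7% in Barx1, against a median of 52.7% over all promoters. These matches are descriptions of the letters and were not tied to any level.

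The 6 libraries held 45178137 to 59904715 reads as recovered from the normalized counts, so that 1 read was worth 0.846 to 1.10 normalized counts. Whether these whole numbers were counted or estimated by the authors' tools is not given in the sources used here. Fibroblast markers summed to between 1603447 and 2445295 normalized counts per library, and epithelial markers, of which 3 of 7 had a value, to between 9.62 and 42.7. Libraries that share a number deviated from their group means in like ways, so they are treated as pairs, and 2165 of 16141 genes, or 13.4%, differed between the replicate numbers in limma's F test (adjusted p under 0.05). That share depended on the variance model and is 64 genes where limma's spread is not allowed to follow expression. It was 1154 genes without the filter on low values and 4498 without the library of irradiated replicate 2.

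Barx1 was the most abundant of the 7 genes per length of transcript, and Dlx6 the least. Per kilobase of exon (GENCODE M21 lengths) Barx1 had a mean level of 2776 normalized counts over the libraries, with a range of 2134 to 3946. Dlx2 followed at 589 normalized counts per kilobase (477 to 671), with no library in common with the range of Barx1. Next came Pitx1 with a level of 264 (10.8 to 616), Dlx1 with 228 (75.7 to 482), Dlx5 with 91.0 (22.1 to 216), Hand2 with 50.3 (1.88 to 153) and Dlx6 with 18.2 (0 to 60.6), all in normalized counts per kilobase. From Dlx2 downwards each gene's range over the libraries overlapped that of the next. Within single libraries, however, Dlx1 was above Dlx5 and Dlx5 above Hand2 in 6 of 6, Dlx2 above Pitx1 and Hand2 above Dlx6 in 5 of 6, and Pitx1 above Dlx1 in 4 of 6. The order itself changed with the replicate number. In the libraries of replicate 1 the mean levels per kilobase of Dlx2 and Pitx1 were 633 and 590, with overlapping values, whereas in replicate 3 they were 543 and 13.4, with Pitx1 below Dlx1 (79.4) and Dlx5 (24.5).

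Both libraries of replicate 1 lay above the other 4 libraries for 6 of the 7 genes, as they did for 16.7% of all genes tested. The exception was Dlx2. For 4 genes, Dlx1, Dlx5, Dlx6 and Pitx1, the libraries of replicates 1, 2 and 3 stood in falling order without overlap, as they did for 2.84% of all genes. The span, meaning the difference in log2(normalized count + 1) between the highest and the lowest of the 3 pair means, was at least 1 for 5 of the 7 genes, against 18.4% of all genes tested (7.45% with replicate 1 the highest). Its median was 3.01 over the 7 genes and 0.40 over all genes. Limma's F test called 13.4% of all genes between replicate numbers (5.43% with replicate 1 the highest). It is not given for the 7, whose levels over the numbers were known when they were chosen. Since the genes were chosen with these levels in view, these counts and the values below are descriptions and test nothing. In bulk RNA, fewer cells that express a gene and less of its RNA per cell cannot be told apart.

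**Figure D1:**
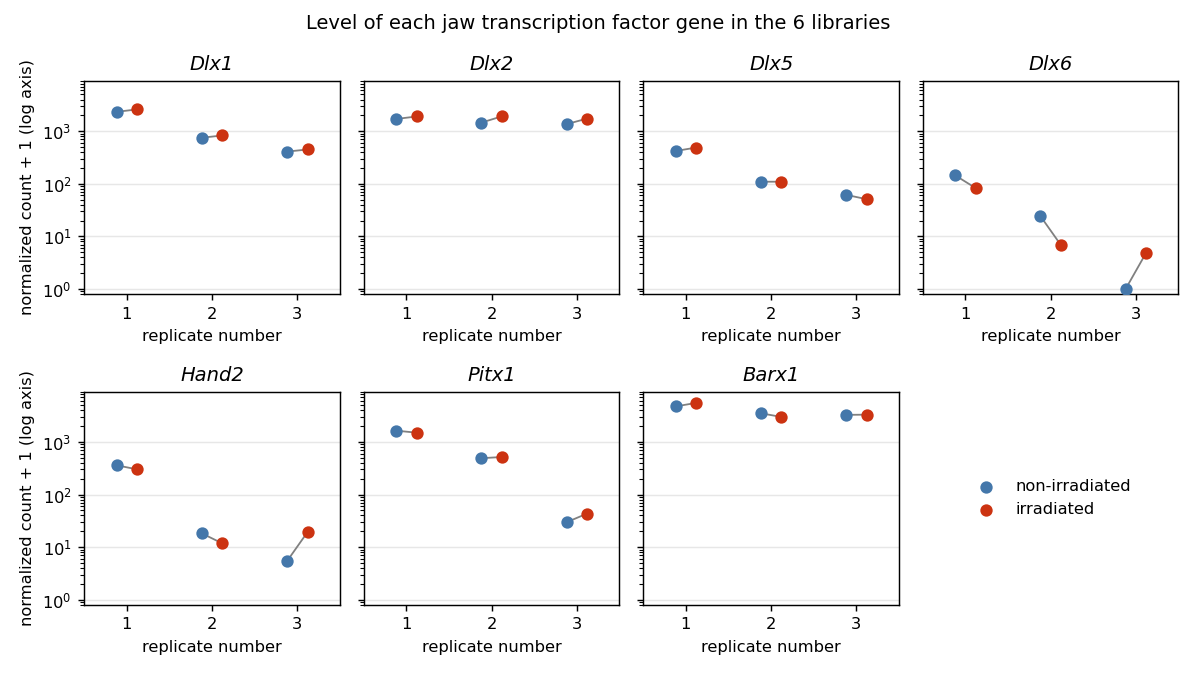
Normalized count + 1 (log axis) of each gene in every library, by replicate number, with non-irradiated libraries in blue and irradiated ones in red, joined within a number by a grey line. Both libraries of replicate 1 are above the other 4 in 6 of the 7 genes, Dlx2 being the exception, and the 2 groups lie close together within a number except for Dlx6 and Hand2, which rest on few reads in replicates 2 and 3.

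Dlx1 and Dlx2 are neighbours on chromosome 2, 9426 bases apart in GENCODE M21, and are known to share enhancers, but their levels did not follow each other here. Dlx1 had 2332, 751 and 409 normalized counts in replicates 1, 2 and 3 without irradiation and 2601, 830 and 448 after it. Replicate 1 was thus high in both groups and replicate 3 low, with a span of 2.52 on the log2 scale, while the largest log2 difference within a pair was 0.16. Dlx2 had 1707, 1456 and 1363 normalized counts without irradiation and 1906, 1916 and 1736 after it. Here the replicate numbers differed little, with a span of 0.23 (log2), and the lowest irradiated library lay above the highest non-irradiated one. The ratio of Dlx1 to Dlx2 normalized counts was 1.37 and 1.36 in the libraries of replicate 1, 0.516 and 0.433 in those of replicate 2 and 0.300 and 0.258 in those of replicate 3, non-irradiated first. Dlx1as, a long non-coding RNA gene on the opposite strand, shares 335 exon bases with Dlx1, 6.21% of the exon bases of Dlx1 in GENCODE M21. It had 95.6, 64.9 and 18.8 normalized counts without irradiation and 163, 62.6 and 23.1 after it, an order over the replicate numbers like that of Dlx1. Whether the authors counted by strand is not given in the sources used here, so reads of such partners cannot be told apart.

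Dlx5 and Dlx6 form the corresponding cluster on chromosome 6, 9236 bases apart in GENCODE M21, and mark the lower part of the arch in mouse embryos. Dlx5 had 420, 109 and 60.7 normalized counts in replicates 1, 2 and 3 without irradiation and 488, 109 and 50.02 after it. The libraries of replicate 1 stood apart from those of replicate 2 (ratio of normalized summed reads 4.14, counting interval 3.57 to 4.82) and of replicate 3 (8.17, 6.68 to 10.1). These 95% intervals are exact binomial ones and cover counting error only. They and those below take the recovered reads as counted ones, which is not established. Dlx6 had 144, 23.3 and 0 normalized counts without irradiation and 82.0, 5.87 and 3.85 after it. It was thus detected mainly in replicate 1, with 245 reads there over the 2 libraries against 29 in replicate 2 and 4 in replicate 3, and passed the filter through both libraries of replicate 1 and 1 of replicate 2. Its 0 reads in non-irradiated replicate 3 allow a level of up to 3.31 normalized counts (3 reads). Dlx6os1, a long non-coding RNA gene antisense to Dlx6 that shares no exon bases with it in GENCODE M21, had 27.9, 15.2 and 0 normalized counts without irradiation and 21.9, 2.94 and 0 after it, again with replicate 1 high and replicate 3 without reads. Dlx6os2, on the opposite strand, shares 104 exon bases with Dlx6, 4.38% of the exon bases of Dlx6, and had no deposited value under that name.

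Hand2, the factor of the arch tip, was near its floor outside replicate 1. It had 359, 17.2 and 4.42 normalized counts in replicates 1, 2 and 3 without irradiation and 299.7, 10.8 and 18.3 after it. Replicates 2 and 3 overlapped, with 28 and 23 reads over the 2 libraries, while replicate 1 had 698. The ratio of replicate 1 to replicate 2 was 23.9 (counting interval 16.4 to 36.2) and to replicate 3 it was 28.2 (18.6 to 44.7). The antisense gene Hand2os1 shares 461 exon bases with Hand2 in GENCODE M21, 19.6% of the exon bases of Hand2, and had no deposited value under that name.

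Pitx1, the homeodomain factor of lower jaw and hindlimb, had a high, a middle and a low replicate number. It had 1635, 489 and 28.7 normalized counts in replicates 1, 2 and 3 without irradiation and 1498, 516 and 42.3 after it. The 3 numbers did not overlap, and the irradiated and non-irradiated library of each number lay close together, at most 0.54 apart on the log2 scale against a span of 5.45. The ratio of replicate 1 to replicate 2 was 3.14 (counting interval 2.92 to 3.37), and that of replicate 2 to replicate 3 was 14.0 (10.95 to 18.1). In GENCODE M21, Gm28760 on the same strand and Gm47071 on the opposite one share 4.07% and 6.21% of the exon bases of Pitx1.

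Barx1, the arch and molar factor, stayed high throughout. It had 4728, 3504 and 3268 normalized counts in replicates 1, 2 and 3 without irradiation and 5520, 2985 and 3297 after it. Replicate 1 was again the highest, at 1.57 times replicate 2 (counting interval 1.52 to 1.62), whereas replicates 2 and 3 overlapped, with a ratio of 0.987 (0.953 to 1.02). The span of Barx1 was 0.66 on the log2 scale, smaller than that of Dlx1, Dlx5, Dlx6, Hand2 and Pitx1 and larger than that of Dlx2.

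Irradiated cells were set against non-irradiated ones to ask whether the laser alters expression at 3 h, and of the 7 genes 0 passed. The tested quantity was the difference in log2(normalized count + 1), in limma without a block, with an adjusted p under 0.05 over 16141 genes, of which 0, or 0%, were called. This fit keeps the differences between the replicate numbers in its spread and so can call little. In simulated data it called 0% of 200 genes changed 2-fold and 74% of 200 changed 4-fold. The fit with the block called 81.5% and 95.5% of them. The simulation gave all genes the same rule for spread, and same-numbered libraries the same mean before irradiation. Its shares need not hold for single genes such as Dlx6 and Hand2. Their SD of 1 library within pairs was 1.51 and 0.94 on the log2 scale. With the replicate number as a block 0 of the 7 were called, against 3 genes or 0.0186% overall. At an unadjusted p under 0.05 there was 1 of the 7, Dlx2, against 132 genes or 0.818% without the block, and again Dlx2 against 526 genes or 3.26% with it. In edgeR and DESeq2 on the recovered reads, with or without the block, 0 of the 7 passed as well, against 24 genes of all tested in DESeq2 with the block. The median difference was 0.14 over the 7 genes and 0.0054 over all genes tested, with 5 of the 7 above 0 against 51.5% of all genes. Dlx2 was the 1 gene of the 7 whose groups did not overlap, as in 4.73% of all genes (2.08% with the irradiated group higher), and Dlx1 and Dlx2 were higher in 3 of 3 pairs, as were 11.8% of all genes, while 0 of the 7 were lower in 3 of 3 pairs, against 11% of all genes.

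Dlx2 averaged 1509 ± 178 normalized counts (SD, n = 3) without irradiation and 1853 ± 101 after it. Its log2 difference was 0.30 ± 0.13 (SE), or ± 0.10 with the block, with an adjusted p = 0.9998 in limma and 0.995 with the block. The pairs of replicates 1, 2 and 3 differed by 0.16, 0.40 and 0.35 on the log2 scale, so all 3 had the irradiated library above its partner. In the authors' deposited table the log2 fold change of Dlx2 was 0.30 with an adjusted p of 0.99997 (DESeq2). A DESeq2 refit with the replicate block reproduced that table. Dlx1 averaged 1164 ± 1026 normalized counts without irradiation and 1293 ± 1149 after it, with the SD taken over the 3 replicate numbers. Its pairs differed by 0.16, 0.14 and 0.13 on the log2 scale, and the difference was 0.14 ± 0.78 (SE) without the block and ± 0.11 with it (adjusted p = 0.995 in limma with the block).

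The other 5 genes had pairs that went both ways. Barx1 averaged 3833 ± 784 normalized counts (SD, n = 3) without irradiation and 3934 ± 1382 after it, and the 95% interval of its log2 difference with the block ran from -0.23 to 0.24. The intervals with the block ran from -0.52 to 0.48 for Dlx5 and from -0.25 to 0.58 for Pitx1. The pairs of replicates 1, 2 and 3 differed by -0.26, -0.63 and 1.83 for Hand2 and by -0.80, -1.825 and 2.28 for Dlx6. Intervals were wide for Hand2, from -0.91 to 1.53, and for Dlx6, from -2.08 to 1.85, whose pairs of replicate 3 compare libraries with 4 and 19 reads and with 0 and 4 reads. The Dlx6 pair of replicate 1 rested on 170 and 75 recovered reads. If these are taken as counted, their exact 95% Poisson intervals, 123.01 to 167 and 64.5 to 103 normalized counts, did not overlap.

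**Figure D2:**
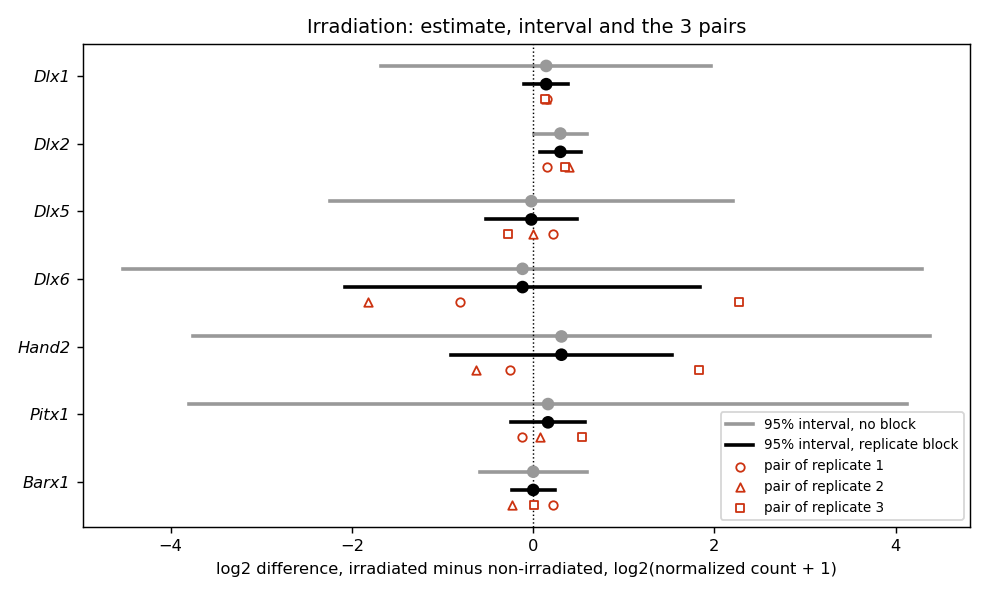
Log2 difference in log2(normalized count + 1), irradiated minus non-irradiated, for each gene, with the 95% interval without a block (grey) and with the replicate block (black) and the 3 pairs as open red symbols. The block narrows the intervals, and those of Dlx6 (-2.08 to 1.85) and Hand2 (-0.91 to 1.53) stay the widest.

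Endothelin-1 from the arch epithelium is known to switch on Dlx5, Dlx6 and Hand2 through the receptor Ednra. Of 11 genes listed for this signal 10 were tested, and with irradiation 0 of them passed in limma with or without the block, with a median log2 difference of 0.06 and 3 higher in 3 of 3 pairs. Between the replicate numbers 4 of 10 passed limma's F test, 3 of them highest in replicate 1, against 13.4% of all genes. This list and those below were chosen with earlier results of these data known. Their counts between replicate numbers are thus descriptions and test nothing. The receptor gene Ednra, named after its values were seen, had 317, 102 and 108 normalized counts without irradiation and 288, 125 and 106 after it (adjusted p = 0.0088 in limma's F test). Ednrb, the second endothelin receptor gene, had 113, 34.5 and 19.9 normalized counts without irradiation and 139, 35.2 and 29.8 after it (adjusted p = 0.0162). Replicate 1 was the highest in both groups for both receptors. The ligand gene Edn1 did not follow, at 113, 231 and 137 normalized counts without irradiation and 159, 264 and 143 after it, with replicate 2 the highest (adjusted p = 0.0709 in limma's F test). Edn2, which encodes a second ligand, had a log2 difference with irradiation of -0.94 ± 0.86 (SE) and mean levels of 46.4, 16.5 and 15.7 normalized counts in replicates 1, 2 and 3 (adjusted p = 0.228 in limma's F test), and Plcb3, a phospholipase C gene, had a log2 difference of 0.14 ± 0.18 and mean levels of 5399, 6491 and 7660.3; these were the 2 genes of smallest p with irradiation.

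Of 27 other transcription factor genes listed for the lower jaw and the first arch, 21 were tested, and with irradiation 0 passed in limma with or without the block, with a median log2 difference of 0.03. Foxf1 and Msx2, of smallest p there without the block, had log2 differences of 0.23 ± 0.11 (SE) and 0.50 ± 0.33. With the block Tbx3 had the smallest p. Its log2 difference was 0.39 ± 0.091 (SE), higher in 3 of 3 pairs (adjusted p = 0.995 in limma with the block). Between the replicate numbers 15 of 21 passed limma's F test, against 13.4% of all genes, a description since the list was chosen with earlier results known. Of the 15, 4 were highest in replicate 1, 4 in replicate 2 and 7 in replicate 3. Nkx3-2, a factor of the developing jaw joint, had 89.7, 0 and 0 normalized counts without irradiation and 74.4, 0 and 15.4 after it. Replicate 1 was thus high, as for 6 of the 7 genes. Nkx3-2 passed the filter only through both libraries of replicate 1 and irradiated replicate 3, so no p-value is given for it. Alx4, a homeodomain gene of the midface and skull, went the opposite way, with 0, 1436 and 3078 normalized counts without irradiation and 6.56, 1516 and 2666 after it (adjusted p = 5.08e-05 in limma's F test). Dlx3, the remaining lower arch Dlx gene tested, had 60.1, 20.3 and 11.04 normalized counts without irradiation and 87.5, 7.83 and 14.4 after it (adjusted p = 0.0611 in limma's F test). Dlx4, its neighbour, had at most 4.42 normalized counts in any library and was not tested.

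**Figure D3:**
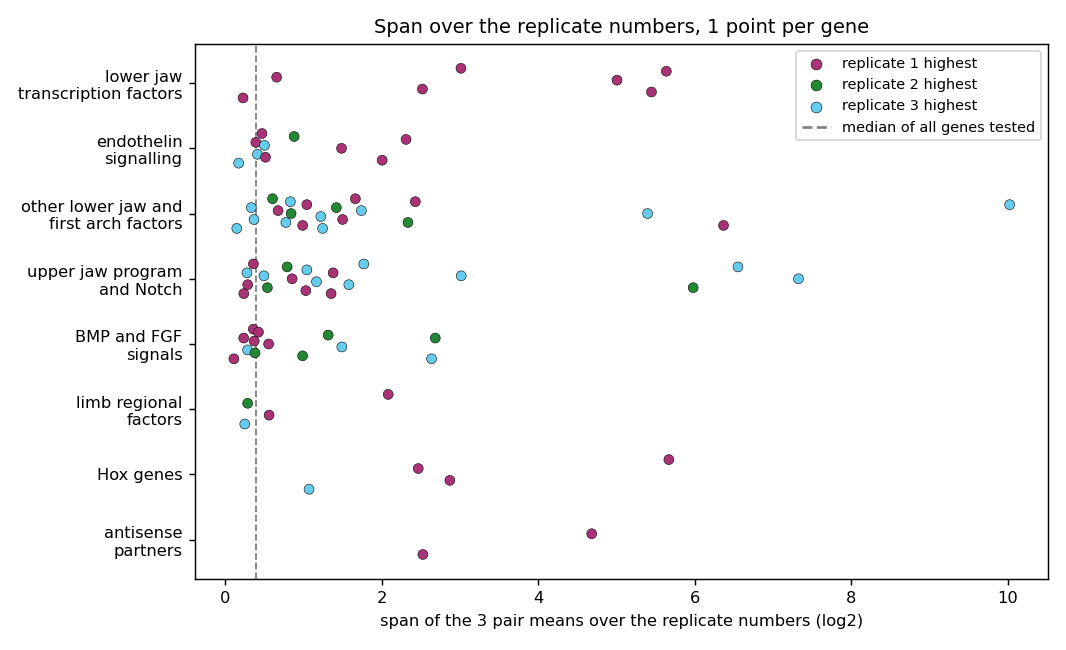
Span of the 3 pair means over the replicate numbers, in log2(normalized count + 1), with 1 point per tested gene of each list, coloured by the replicate number with the highest mean, and the median of all genes tested (0.40) as a dashed line. By pair mean all 7 lower jaw factors, chosen with these levels known, are highest in replicate 1, Dlx2 by little (span 0.23). So are 7 of 21 genes of the first arch list and 7 of 19 of the upper jaw list. These 2 lists also include genes with wide spans that are highest in replicate 3, such as Alx4 and Alx1.

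Of 21 genes listed for the upper jaw program and its Notch signal 19 were tested, and with irradiation 0 passed in limma with or without the block, with a median log2 difference of -0.0047. Notch2 and Meis1, of smallest p there without the block, had log2 differences of 0.16 ± 0.17 (SE) and -0.22 ± 0.16. With the block Alx1 had the smallest p. Its log2 difference was -0.43 ± 0.16 (SE), lower in 3 of 3 pairs (adjusted p = 0.995 in limma with the block). Between the replicate numbers 12 of 19 passed limma's F test, against 13.4% of all genes, again a description since the list was chosen with earlier results known. Of the 12, 4 were highest in replicate 1, 2 in replicate 2 and 6 in replicate 3. Alx1, a midface factor, had mean levels of 20.3, 1573 and 1951 normalized counts in replicates 1, 2 and 3 (adjusted p = 1.09e-06 in limma's F test). These mean levels stood in the reverse order of those of Pitx1, Dlx1 and Dlx5.

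Bone morphogenetic proteins and fibroblast growth factors pattern the arch beside endothelin. Of 17 such genes listed 13 were tested, and 0 passed with irradiation in limma with or without the block, with a median log2 difference of 0.04. Smad7 and Spry2, feedback inhibitors and the 2 of smallest p without the block, had log2 differences of 0.21 ± 0.13 (SE) and 0.23 ± 0.17. Between the replicate numbers 6 of 13 passed limma's F test, 1 of them highest in replicate 1, against 13.4% of all genes. This too is a description, as the list was chosen with earlier results known. Bmp4, a ligand known to act upstream of Hand2 at the arch tip, had mean levels of 142, 595 and 893 normalized counts in replicates 1, 2 and 3 (adjusted p = 9.44e-05 in limma's F test), and Bmp2 had 19.1, 120.4 and 74.2 (adjusted p = 0.0196). Both were thus lowest in the replicate in which Hand2 was highest.

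Pitx1 is also a hindlimb factor, and its known hindlimb target Tbx4 had at most 7.10 normalized counts in any library. Of 7 limb and body region genes listed, Tbx4 included and Pitx1 left out, 4 were tested, and 0 passed with irradiation in limma with or without the block. En1 and Tbx18, of smallest p there without the block, had log2 differences of -0.56 ± 0.25 (SE) and -0.10 ± 0.14. Between the replicate numbers 1 of 4 passed, against 13.4% of all genes. It was Tbx15, a T-box gene of skin and limb mesenchyme, with mean levels of 5610.4, 1868 and 1334 normalized counts in replicates 1, 2 and 3 (adjusted p = 5.83e-05 in limma's F test). Emx2, with the next widest span, had 875, 593 and 599.7. Jaw mesenchyme is known for the absence of Hox expression, and 6 Hox genes had a value in the table, of which 4 were tested. Of these 4, 2 passed between the replicate numbers, against 13.4% of all genes, and both were highest in replicate 1. Hoxd8, with mean levels of 76.9, 20.4 and 10.9 normalized counts in replicates 1, 2 and 3, was among them. Hoxc13 had 58.4, 56.8 and 103 normalized counts without irradiation and 56.9, 50.9 and 127 after it, was highest in replicate 3 and did not pass (adjusted p = 0.121 in limma's F test). Hoxa2, which specifies the arch behind the jaw, had 46.5, 0 and 0 normalized counts without irradiation and 53.6, 0 and 14.4 after it and did not pass (adjusted p = 0.0718 in limma's F test).

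The genes whose levels were most like those of each of the 7 were sought among named genes that averaged 50 or more normalized counts, by the root mean square difference of mean-centred log2(normalized count + 1) over the 6 libraries. Dlx1 was closest to Akap12, a kinase-anchoring protein gene (0.11), and Adra2a, an adrenergic receptor gene (0.12). Dlx5 was closest to Foxp2, a forkhead factor gene (0.15), and Cd24a, a surface protein gene (0.15). Dlx2 was closest to Txnrd1 (0.042) and Plk2 (0.046), and Barx1 to Ugp2 (0.053) and Gaa (0.059). Matches were looser for the other 3 genes, with Pde8b (1.06) and Rspo3 (1.11) for Dlx6, Vit (0.87) for Hand2, and Olr1 (0.95) and Pde8b (0.97) for Pitx1. Among the 7 genes themselves Dlx1 and Dlx5, from different clusters, were the closest pair (0.25), ahead of Dlx2 and Barx1 (0.31). The cluster neighbours Dlx1 and Dlx2 were 0.96 apart, and Dlx5 and Dlx6 1.44. The last value rests in part on Dlx6 libraries with few reads, such as 0 and 4 in replicate 3. Dlx5 and Dlx6 both fell from replicate 1 to 3 without overlap.

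**Figure D4:**
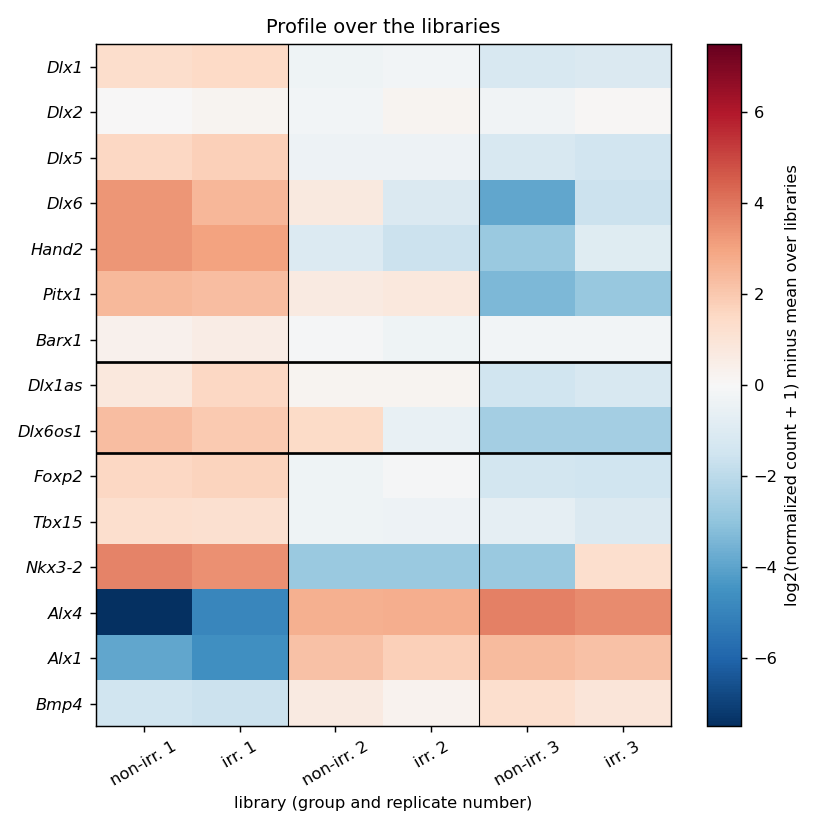
Log2(normalized count + 1) minus its mean over the libraries (colour) for the 7 genes, the antisense genes Dlx1as and Dlx6os1 and other genes named in the text, with 1 column per library ordered by replicate number. Dlx5, Dlx6, Hand2 and Pitx1 are high (red) in both libraries of replicate 1, where Alx4, Alx1 and Bmp4 are low (blue).

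Markers of other cell types also moved with the replicate number. Endothelial markers, 6 of 6 with a value, summed to 617 and 605 normalized counts in the libraries of replicate 1 and to between 160 and 266 in the other 4, with Tek at 382 and 378 against 48.6 to 72.4 and Kdr at 185 and 184 against 42.0 to 92.0. These 2 genes made up most of the sum in replicate 1, where Cdh5 was at 7.61 and 10.9 against 14.4 to 33.5, Tie1 at 0 and 4.37 against 4.42 to 15.4, and Emcn at 0 in both libraries. Leukocyte markers, 4 of 7 with a value, summed to 239 and 203 in replicate 1 and to between 74.1 and 170 elsewhere, most of it Lyz2 (186 and 157 in replicate 1), with Ptprc at no more than 15.2. Cartilage markers, 3 of 5 with a value, summed to 5476 and 4981 in replicate 1, 1930 and 2489 in replicate 2 and 13875 and 15895 in replicate 3, with Col2a1 at 11302 and 12990 in replicate 3. Osteoblast markers, 4 of 6 with a value, summed to 2718 to 4333 in replicates 1 and 2 and to 4850 and 5824 in replicate 3, most of it Runx2 in every library. Skeletal muscle markers, 2 of 6 with a value, summed to 1969 and 2019 in replicate 1, 3115 and 3378 in replicate 2 and 6748 and 7091 in replicate 3, nearly all of it Acta1, while Des was at 75.3 and 71.1 in replicate 1 against 30.9 to 41.1 elsewhere. Over all libraries glial markers (5 of 5) summed to 1025 to 1966, pericyte and smooth muscle markers (5 of 6) to 240617 to 325381 and tooth pulp markers (1 of 4) to 36.5 to 77.0. Most of the pericyte and smooth muscle sum was Acta2, with a mean of 246214 normalized counts over the libraries, while Rgs5 had a mean of 55.1. Fibroblast markers themselves differed, with 7 of 10 past limma's F test, 6 of them highest in replicate 1. Col3a1 and Postn had mean levels of 312109.9 and 189879.7 normalized counts in replicate 1 against 94053 and 83478 in replicate 3. Lum had 59.2 and 50.3 in the libraries of replicate 1 against 782 to 1119 elsewhere. The part of these differences in the levels of the 7 genes was not tested.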

How the data were processed

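RNA-seq was performed on 6 libraries. Per the submitters' processing notes, the tools were HISAT2 2.2.1, StringTie 2.1.7, Trimmomatic 0.39 and FastQC 0.11.9 and the build GRCm39, with settings, strand and annotation release not given in the sources used here. Per the file headers the authors deposited normalized counts, a signal of gene counts divided by 1 size factor per library. Per the file headers the authors also deposited p-values, a Wald statistic (a score) and a log2 fold change from DESeq2. Of 20745 rows 80 repeated an identifier and were dropped. Divided by what 1 read is worth in its library, 100% of values came out as whole reads (tolerance 0.001 reads), 45178137 to 59904715 per library.

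The tests, in limma 3.58.1 under R 4.3.3, used log2(normalized count + 1) of genes that reached 10 normalized counts in 3 or more libraries (trend, 2-sided, Benjamini-Hochberg, threshold 0.05). On this scale changes of low genes are understated. Irradiation was fitted without a block, and the replicate number by an F test with irradiation as a term. Same-numbered libraries correlated in their deviations from the group means at 0.64, 0.47 and 0.56 over 13053 genes, against at most 0.03 otherwise, so the numbers, from the sample titles, were taken to pair the libraries. Each group was centred on its own mean, so positive values for same-numbered libraries force lower ones for the others, which are no separate check. The genes and lists were chosen with earlier results of these data known. Named list genes are the 2 of smallest p for irradiation without the block and the 2 of widest span. Tbx3, Ednra, Edn1, Dlx3, Dlx4, Tbx4, the Hox genes, Dlx1as and Dlx6os1 were named after their values were seen. So were the fibroblast, endothelial, leukocyte, osteoblast, cartilage, skeletal muscle, pericyte and smooth muscle markers. Pitx1 was taken out of the limb list. Named beside each of the 7 genes are the 2 genes of closest profile. Some genes that these rules name are not reported here.

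The scripts were tested on simulated data. Alternatives were pseudocounts of 0.5 and 5, filters of 0 or 50 normalized counts, other scalings and variance models, the block, edgeR 4.0.16 and DESeq2 1.42.0 on recovered reads, and leaving out libraries. Lengths and overlaps came from GENCODE M21 on GRCm38, another build than the authors' one, by symbol, and promoters from RefSeq by symbol for 4 of the 7 genes.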

Additional observations from a re-analysis of the deposited data

How the results depend on the processing

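In 23 alternative settings 0 of the 7 genes passed for irradiation. Of 159 recomputed differences 124 kept their direction and 35 did not, none past the threshold. The log2 difference became 0.14 for Dlx6 with a pseudocount of 0.5. It became -0.0073, -0.024 and -0.0062 for Barx1 with TMM, equal library totals and edgeR with the block. In edgeR and DESeq2 without the block it became 0.13 and 0.13 for Dlx5, -0.22 and -0.21 for Hand2, and -0.068 and -0.066 for Pitx1. Leaving out 1 library, without the block, gave -0.55 to 0.84 for Dlx1, 0.23 to 0.39 for Dlx2, -0.92 to 0.77 for Dlx5, -2.08 to 1.51 for Dlx6, -1.13 to 2.04 for Hand2, -1.47 to 1.61 for Pitx1 and -0.27 to 0.17 for Barx1. In these fits 1 replicate number stands in only 1 group. Differences between the replicate numbers thus enter the estimate, and the ranges do not measure irradiation alone. With the replicate block, after leaving out both libraries of replicate 1, 2 or 3, it stayed at 0.14 to 0.15 for Dlx1 and 0.25 to 0.37 for Dlx2. Without replicate 1 it became -0.11 for Barx1 and 0.23 for Dlx6, without replicate 2 it became 0.74 for Dlx6, and without replicate 3 it became 0.11 for Dlx5, -0.45 for Hand2, -0.025 for Pitx1 and -0.0040 for Barx1.

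Over all genes irradiation called 0 genes, 1 without the trend, 3 with the replicate block, 5 in DESeq2 without the block, 2 in edgeR and 24 in DESeq2 with it, 24 in the authors' deposited table, 0 to 1 without 1 library and 36, 32 and 64 in the block fits that left out replicate 1, 2 or 3. The replicate block changed no call of the 7 genes. The replicate number called 2165 genes, 1154 without a filter on low values, 64 without the trend and 2133 to 4498 without 1 library, the last without irradiated replicate 2. The cause was not tested. The spans ranged over the alternatives from 2.51 to 2.53 for Dlx1, 0.12 to 0.34 for Dlx2, 2.82 to 3.21 for Dlx5, 3.84 to 7.43 for Dlx6, 4.49 to 6.15 for Hand2, 5.16 to 5.73 for Pitx1 and 0.49 to 0.83 for Barx1. TMM and equal totals moved the median of all genes by -0.0088 and -0.026 (log2). With the filter of 50 normalized counts Dlx6 and Hand2 gave no value. Dlx6 and Hand2 rest on few reads outside replicate 1.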
